A study of Mus musculus with 72 samples.

Results

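The genes of the proteasome were followed over the day in mouse liver under 4 feeding paradigms. The members were the rows of a count table that the GENCODE M21 annotation gives as protein coding, whose symbol starts with Psma, Psmb, Psmc, Psmd, Psme, Psmf or Psmg followed by a digit, and whose mean level was at least 1 CPM (counted reads of a gene scaled to the same library total). They numbered 47 of the 51912 rows, and 50 protein-coding rows carried such a symbol. The 3 that fell below the level were Psma8, a testis form of an alpha subunit, with a mean of 0.400 CPM, Psmc3ip, a meiotic recombination factor and no proteasome subunit, with 0.262 CPM, and Psmb11, the thymus beta subunit, with 0.0019 CPM. Psmb2, a beta subunit, was the member nearest above the level, with 5.05 CPM. All 47 members had reads in all 72 libraries and all 47 passed the filter on low counts.

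All libraries came from livers of male wild-type C57BL/6J mice that were 43 to 49 days old at the start, kept in 12 h of light and 12 h of dark with free access to water. The groups were incompletely adapted arrhythmic feeding (arrhythmic feeding in animals labelled as not fully adapted), arrhythmic feeding, night-restricted feeding and ad libitum feeding, with 18 libraries each. Every group held 3 libraries at zeitgeber times (ZT, hours after lights on) 2, 6, 10, 14, 18 and 22. The sources used here give neither the timing of food nor the criterion for adaptation. Whether replicates are different animals is not in the labels, so the spread behind each p-value may be technical.

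The proteasome is the barrel-shaped protease that breaks down proteins tagged with ubiquitin. Its core is built of alpha subunits, which gate entry, and beta subunits, some of which cut peptide bonds. A regulatory particle sits on the core: its ATPases unfold proteins and thread them in, and its other subunits bind ubiquitin chains, remove them and hold the particle together. Inducible beta subunits replace the constitutive ones in the immunoproteasome, activators open the core without ubiquitin, and dedicated chaperones assemble both parts. In mammalian cells the subunit genes are known to be induced together through the transcription factor NRF1 when proteasome capacity falls short.

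The promoter sequences below belong to Psmd4 and Psmd5, whose daily course differed between arrhythmic and night-restricted feeding, and to Psmb5, which missed that threshold narrowly. They run 5′ to 3′ on the gene's own strand, from 250 bases before to 50 bases after the RefSeq transcription start in build GRCm38.p6. Capitals mark matches to CCAAT (bound by NF-Y), the antioxidant response element core TGACNNNGC (bound by NRF1 and NRF2) or the heat shock element core GAANNTTC, on either strand.
Psmd4 (chr3:95042565-95042864, minus strand): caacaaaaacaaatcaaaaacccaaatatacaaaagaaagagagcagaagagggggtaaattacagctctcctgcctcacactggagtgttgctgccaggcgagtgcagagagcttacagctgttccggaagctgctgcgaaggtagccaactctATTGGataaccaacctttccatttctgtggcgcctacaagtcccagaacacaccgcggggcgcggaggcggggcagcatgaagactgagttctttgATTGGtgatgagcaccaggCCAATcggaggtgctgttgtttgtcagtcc
Psmd5 (chr2:34870913-34871212, minus strand): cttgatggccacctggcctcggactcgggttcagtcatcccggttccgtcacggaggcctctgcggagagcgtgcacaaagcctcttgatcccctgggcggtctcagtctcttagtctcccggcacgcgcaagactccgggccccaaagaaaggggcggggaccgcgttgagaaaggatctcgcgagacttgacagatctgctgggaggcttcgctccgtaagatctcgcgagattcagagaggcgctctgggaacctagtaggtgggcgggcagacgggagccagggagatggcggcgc
Psmb5 (chr14:54617946-54618245, minus strand): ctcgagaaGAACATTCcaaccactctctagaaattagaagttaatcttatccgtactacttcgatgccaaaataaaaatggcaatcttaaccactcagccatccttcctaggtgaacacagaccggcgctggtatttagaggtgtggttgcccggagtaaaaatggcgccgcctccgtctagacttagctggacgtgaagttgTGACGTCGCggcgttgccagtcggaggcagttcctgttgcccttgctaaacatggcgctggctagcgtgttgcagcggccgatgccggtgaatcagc
The Psmd4 window held 3 CCAAT matches, starting at positions -95, 2 and 21 from the start site. The Psmb5 window held an antioxidant element core at -47 and a heat shock element core at -242. The Psmd5 window held no match to the motifs searched, which were these, the E-box CACGTG and the D-box forms TTATGTAA and TTACGTAA. Of the 40 members with a promoter entry, 6 held TGACNNNGC (15.0%, against 14% of 27025 genes), 13 held CCAAT (32.5%, against 41.1%), 4 held CACGTG (10%, against 8.09%) and 3 held GAANNTTC (7.5%, against 9.04%). No member window held a D-box form, which 1.11% (TTATGTAA) and 0.126% (TTACGTAA) of genes held. Matches were searched on both strands and may overlap each other.

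Libraries held 4342026 to 12286021 counted reads, with a median of 6992793. The median count of a member per library was lowest for Psmb2, at 37 reads. The 6 hepatocyte markers (Alb, Apoa1, Ttr, Serpina1a, Fgb and Apoa2) summed to 26759 to 45342 CPM in every library, and T and NK cell markers to at most 4.03 CPM. Kupffer cell and macrophage markers summed to 364 to 2411 CPM, erythroid markers to 999 to 6110 CPM and neutrophil markers to at most 95.5 CPM. Some libraries stood apart in base composition. The slope of a library's log2 CPM deviations on the GC content of the last 500 transcript bases was 0.364, 0.320 and 0.315 in the night-restricted replicate 1 libraries of ZT22, ZT06 and ZT02, and -0.269 and -0.241 in the incompletely adapted arrhythmic replicate 1 libraries of ZT10 and ZT14. These are the 5 largest slopes in size. Results without them are given below for some members and otherwise as counts of calls. In whole tissue, fewer cells of a type and less RNA per cell cannot be told apart.

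Summed over the 47 members, unscaled CPM was higher early in the light phase than in the first part of the dark phase in every paradigm. Under arrhythmic feeding this depended on the scaling, as given below. Under incompletely adapted arrhythmic feeding the sum averaged 6257 ± 241 CPM at ZT06, its highest time, and 5434 ± 178 CPM at ZT18, its lowest (SD, n = 3 each). Under arrhythmic feeding it averaged 6444 ± 148 CPM at ZT02, against 5516 ± 123 CPM at ZT14. Under night-restricted feeding it averaged 6270.1 ± 229.7 CPM at ZT02, against 5479 ± 149 CPM at ZT14. In unscaled CPM, libraries of the highest and the lowest time did not overlap in these 3 paradigms. Under ad libitum feeding it averaged 6467 ± 294 CPM at ZT06 and 5599.96 ± 245 CPM at ZT18, again without overlap. These sums weight members by their read counts and carry no test. The times compared were picked as highest and lowest from the same sums. No TMM scaling was applied, the per-library factors by which the fits divide levels. For arrhythmic feeding the factors were 1.07, 1.02 and 1.09 at ZT02 and 0.931, 0.846 and 0.952 at ZT14. Dividing by them removes most of the difference there, and the libraries of both times then overlap. For night-restricted feeding the factors were 0.813, 0.956 and 1.02 at ZT02 and 0.940, 1.04 and 1.01 at ZT14, which widens the difference.

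**Figure D1:**
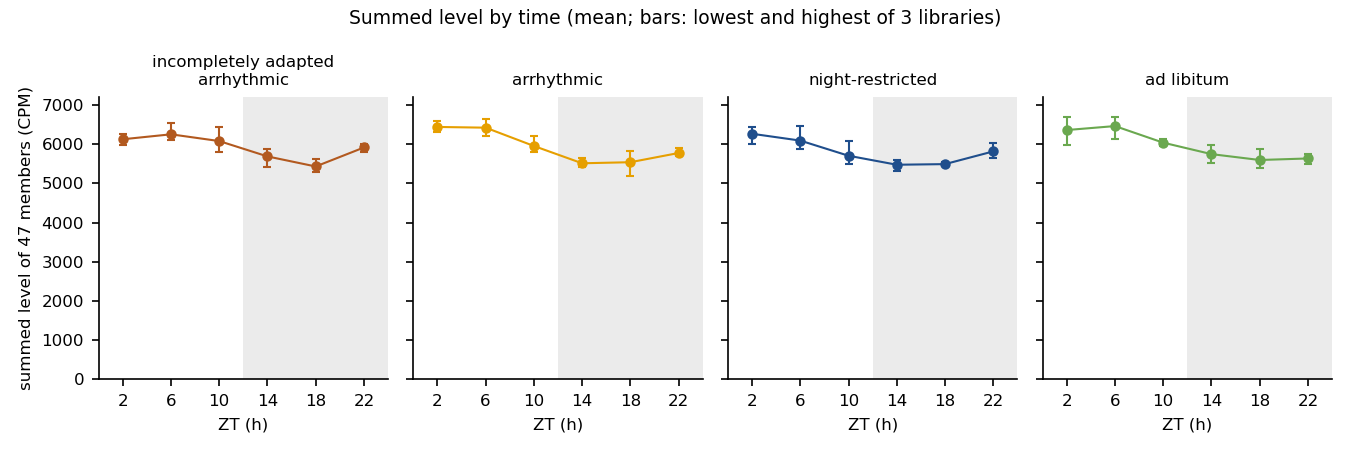
Summed level of the 47 members (CPM, y axis) at each ZT (x axis, hours; grey is the dark phase) in the 4 paradigms, as the mean of 3 libraries with bars from the lowest to the highest. In these CPM values, without TMM scaling, the mean is highest at ZT02 or ZT06 and lowest at ZT14 or ZT18 in each paradigm.

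A cosine curve with a 24 h period was fitted to each gene in each paradigm, with edgeR's quasi-likelihood model and p-values adjusted by Benjamini-Hochberg over 12712 genes. The range of a gene is the height of its fitted curve, peak minus trough in log2 units. It cannot be negative, so noise alone gives values above 0. The test of a rhythm difference compares the curves of both paradigms in height and timing together. Adjusted p-values given beside a difference in range come from that test, and the range alone was not tested. At an adjusted p under 0.05, Psma7 alone was rhythmic under incompletely adapted arrhythmic feeding, against 3.63% of all genes. Under arrhythmic feeding no member passed edgeR's test, against 3.37% of all genes, and 3 members (Psma7, Psmb10 and Psmd1) had an unadjusted p under 0.05 (13.8% of all genes). DESeq2 also called 0 members there. Under night-restricted feeding 10 of 47 members were rhythmic, against 29.9% of all genes. They were Psmd4, Psmd5, Psmd7, Psmb5, Psmd10, Psmc1, Psma2, Psmd14, Psmc3 and Psmc5. Under ad libitum feeding Psmd4 alone was called, against 7.48% of all genes. The members' median range was 0.32 under incompletely adapted arrhythmic, 0.36 under arrhythmic, 0.53 under night-restricted and 0.42 under ad libitum feeding. Over all genes the medians were 0.42, 0.43, 0.70 and 0.52 in the same order. The members' share of calls was below that of all genes in this fit, with at most 1 call outside night-restricted feeding, and under night-restricted feeding it was above that of all genes with the GC slope of each library as a covariate (18 of 47, 38.3%, against 33.1%).

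Psmd4, the ubiquitin receptor of the regulatory particle, had the widest range of the members under night-restricted feeding. Under incompletely adapted arrhythmic feeding it stood at 415, 429.5 and 332 CPM at ZT02 and at 261, 298 and 267 CPM at ZT14. Under arrhythmic feeding it stood at 351, 442 and 407 CPM at ZT02 and at 279.7, 283 and 249 CPM at ZT14. In both paradigms the ZT02 libraries lay above the ZT14 libraries in CPM. Under night-restricted feeding it stood at 544, 463 and 637 CPM at ZT02 and at 204, 218 and 264 CPM at ZT14, without overlap and with means farther apart. Under ad libitum feeding it stood at 671, 412 and 625 CPM at ZT02 and at 269.7, 294 and 190.4 CPM at ZT14. In CPM the ZT02 libraries lay above the ZT14 libraries in all 4 paradigms. The TMM factors of the fits were not applied to these values. Under arrhythmic feeding the groups overlap once they are divided by the factors. There ZT02 replicate 1 (factor 1.07) falls below ZT14 replicate 2 (factor 0.846).

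The fitted range of Psmd4 was 0.61 ± 0.21 under incompletely adapted arrhythmic, 0.30 ± 0.21 under arrhythmic, 1.50 ± 0.21 under night-restricted and 0.93 ± 0.21 under ad libitum feeding (log2, ± SE). The edgeR adjusted p was 0.228 under incompletely adapted arrhythmic and 0.736 under arrhythmic feeding. Its fitted peak fell at ZT 1.51 under night-restricted feeding (edgeR adjusted p = 9.42e-07) and at ZT 3.15 under ad libitum feeding (edgeR adjusted p = 0.00618). Both calls held in all 72 fits that left out a single library and under all 10 other alternatives. Between arrhythmic and night-restricted feeding the courses of Psmd4 differed, the range being smaller under arrhythmic feeding (log2 difference -1.20, edgeR adjusted p = 0.0278).

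That difference was called under 4 of the 10 other alternatives, with an edgeR adjusted p of up to 0.236 in the rest. Without the 5 libraries of steepest GC slope it was not called. With the GC slope of each library as a covariate the Psmd4 difference was -0.82 (edgeR adjusted p = 0.127), and without the 6 libraries of night-restricted replicate 1 it was -0.95 (edgeR adjusted p = 0.117). It also lost its call without the arrhythmic libraries ZT02 replicate 1 or ZT14 replicate 2, or the night-restricted libraries ZT02 replicate 1, ZT14 replicate 1 or ZT14 replicate 2, with an adjusted p of at most 0.0605.

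Psmd5, a chaperone that assembles the base of the regulatory particle, ran in a different phase from Psmd4. Under incompletely adapted arrhythmic feeding it stood at 22.2, 18.8 and 17.9 CPM at ZT18 and at 17.3, 18.1 and 17.1 CPM at ZT06, with overlap. Under arrhythmic feeding it stood at 14.8, 20.8 and 19.5 CPM at ZT18 and at 19.1, 19.5 and 15.6 CPM at ZT06. There the groups overlapped. Under night-restricted feeding it stood at 21.7, 34.2 and 28.7 CPM at ZT18 and at 9.65, 13.3 and 14.6 CPM at ZT06. The groups did not overlap, and the ZT18 mean was 2.25 times the ZT06 mean. Under ad libitum feeding it stood at 22.7, 20.3 and 21 CPM at ZT18 and at 15.7, 15.0 and 19.3 CPM at ZT06, with every ZT18 library higher.

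The fitted range of Psmd5 was 0.17 ± 0.16 under incompletely adapted arrhythmic, 0.30 ± 0.16 under arrhythmic, 1.13 ± 0.16 under night-restricted and 0.40 ± 0.16 under ad libitum feeding (log2, ± SE). Its fitted peak under night-restricted feeding fell at ZT 19.1 ± 0.540 h (SE), and that rhythm (edgeR adjusted p = 9.54e-07) was called in all 72 fits without a single library and under all 10 other alternatives. Between arrhythmic and night-restricted feeding the courses of Psmd5 differed by edgeR's test (adjusted p = 0.041), the range being smaller under arrhythmic feeding (log2 difference -0.83). The difference was called under 6 of the 10 other alternatives, with an edgeR adjusted p of up to 0.219 in the rest. With no filter, with time as a factor or with only the libraries of the paradigms tested it was not called. With the GC covariate the difference was -0.75 (adjusted p = 0.0419), and without night-restricted replicate 1 it was -0.94 (adjusted p = 0.0521). It lost its call in 17 of the 72 fits without a single library, of which 10 left out an arrhythmic and 7 a night-restricted library, with an adjusted p of at most 0.0872.

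Incompletely adapted arrhythmic and night-restricted feeding share the night-restricted libraries with the comparison above. No member was called for a rhythm difference there by edgeR, against 0.614% of all genes. An unadjusted p under 0.05 was found for 8 members (14.6% of all genes), and DESeq2 called Psmd5. The difference in range was -0.96 for Psmd5 (edgeR adjusted p = 0.0566) and -0.89 for Psmd4 (edgeR adjusted p = 0.202). In arrhythmic against night-restricted feeding the 2 calls, Psmd4 and Psmd5, compare with 3.89% of all genes, and both had a smaller range under arrhythmic feeding, as did 3.63% of all genes. There 13 members had an unadjusted p under 0.05 (25.9% of all genes). The range was smaller under arrhythmic feeding in 35 of 47 members, against 72.5% of all genes, and smaller under incompletely adapted arrhythmic than under night-restricted feeding in 38 of 47, against 76.2% of all genes.

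**Figure D2:**
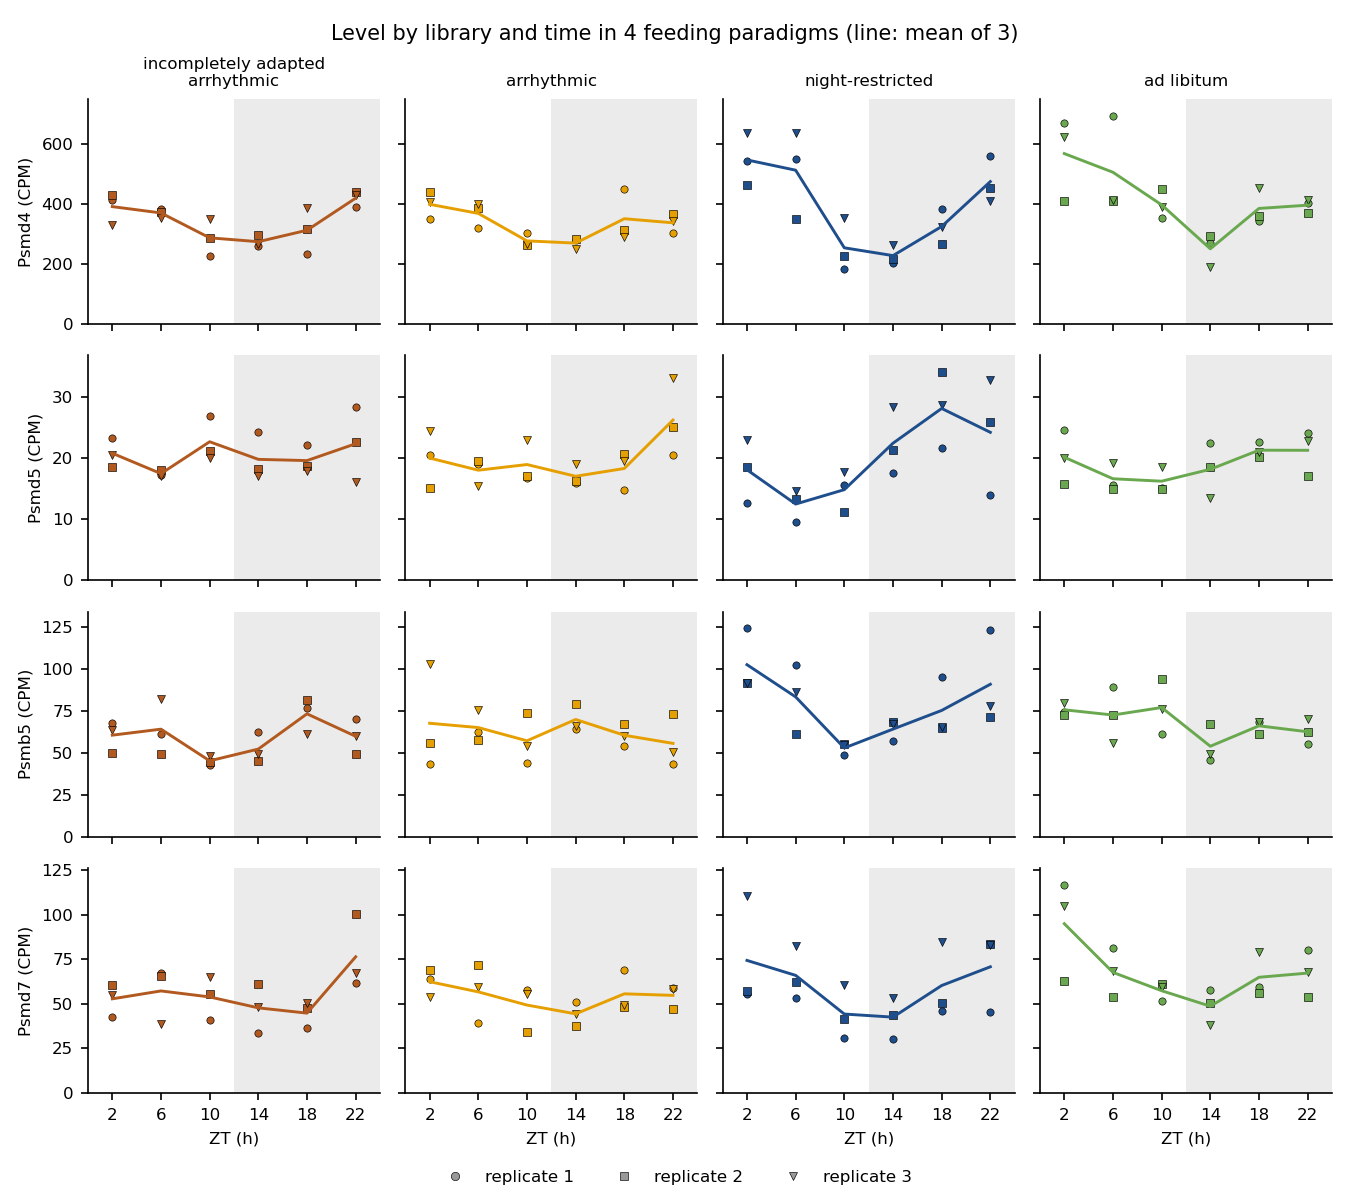
Level in each library (CPM, y axis from 0) of Psmd4, Psmd5, Psmb5 and Psmd7 (rows) by ZT (x axis, hours; grey is the dark phase) in the 4 paradigms (columns); marker shapes are replicates 1 to 3 and lines join the means of 3. Psmd4 at ZT14 lies between 190.4 and 298 CPM in every paradigm, while at ZT02 it spans 351 to 442 CPM under arrhythmic and 463 to 637 CPM under night-restricted feeding.

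Arrhythmic against ad libitum feeding gave no member with a rhythm difference by edgeR, against 0.0236% of all genes, with 3 members (Psma3, Psmd2 and Psmd4) at an unadjusted p under 0.05 (9.05% of all genes) and 0 called by DESeq2. Night-restricted against ad libitum feeding gave 0 members, against 0% of all genes, with Psmb5, Psmd4 and Psmd5 at an unadjusted p under 0.05 (8.72% of all genes) and 0 called by DESeq2. Incompletely adapted arrhythmic against arrhythmic feeding gave 0 members, against 0% of all genes, with Psmd2 at an unadjusted p under 0.05 (2.44% of all genes) and 0 called by DESeq2. For Psmd4 the difference in range was -0.63 for arrhythmic minus ad libitum (edgeR adjusted p = 0.539) and 0.57 for night-restricted minus ad libitum (edgeR adjusted p = 0.573). The lack of a call does not show that these courses were alike.

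**Figure D3:**
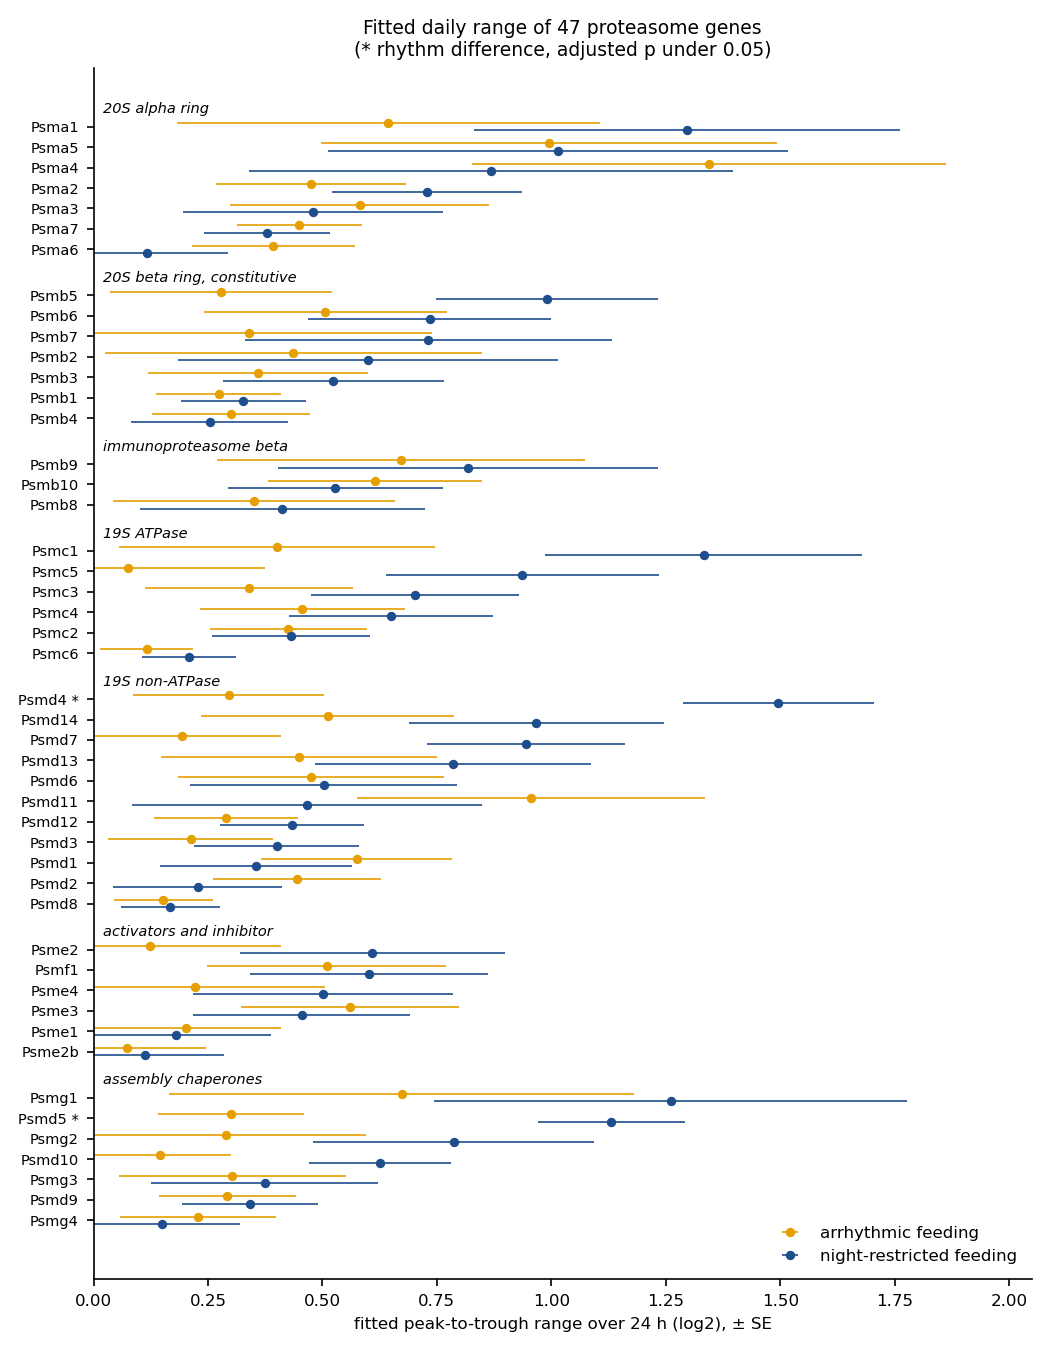
Fitted peak-to-trough range over 24 h (log2, x axis; bars are ± SE and are cut at 0) of each member, grouped by role, under arrhythmic (upper point of each pair) and night-restricted feeding (lower point). Psmd4 and Psmd5, starred, are the members called for a rhythm difference.

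Among the other subunits of the regulatory particle, Psmd7 and Psmd14 form the pair that removes ubiquitin chains, with Psmd14 as the deubiquitinase and Psmd7 as its partner. Under night-restricted feeding Psmd7 stood at 55.3, 57.4 and 110.3 CPM at ZT02 and at 30.5, 44.0 and 53.2 CPM at ZT14, without overlap. Its fitted range there was 0.94 ± 0.22 with a peak at ZT 0.637 (edgeR adjusted p = 0.00308), and this call held in all 72 fits without a single library and under all 10 other alternatives. Psmd14 had a fitted range of 0.97 ± 0.28 and a peak at ZT 17.5 (edgeR adjusted p = 0.0213). Psmd14 lost its call without the night-restricted libraries ZT06 replicate 1, ZT18 replicate 2 or ZT06 replicate 3, with an adjusted p of at most 0.0803. Under ad libitum feeding Psmd7 had a range of 0.74 (edgeR adjusted p = 0.0569), which was called with the GC covariate (0.75, adjusted p = 0.0287) and without night-restricted replicate 1 (0.73, adjusted p = 0.0353).

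Of the 11 subunits of the regulatory particle that are no ATPases, 3 were called under night-restricted feeding (Psmd4, Psmd7 and Psmd14), against 29.9% of all genes. Psmd8, a lid subunit, had the smallest range of that group there (0.17 ± 0.11). Of the 6 ATPases, 3 were called (Psmc1, Psmc3 and Psmc5), against the same 29.9% of all genes. Psmc1 stood at 186, 102 and 197 CPM at ZT06 and at 59.3, 64.4 and 91.3 CPM at ZT14, with every ZT06 library higher. Its fitted range was 1.33 ± 0.35 with a peak at ZT 2.51 (edgeR adjusted p = 0.00957). Psmc3 and Psmc5 had ranges of 0.70 ± 0.23 and 0.94 ± 0.30 and peaks at ZT 5.40 and ZT 1.90 (edgeR adjusted p = 0.0395 and 0.0417). The 3′ end of Psmc3 overlaps Slc39a13 on the opposite strand, and since the strand setting of the counting is unknown here, reads of the pair cannot be told apart. With the GC covariate Psmc5 had a range of 0.38 ± 0.21 (edgeR adjusted p = 0.332), and without night-restricted replicate 1 Psmc1 had 1.09 (edgeR adjusted p = 0.145) and Psmc5 0.73 (edgeR adjusted p = 0.216). Psmc3 lost its call without the night-restricted libraries ZT02 or ZT06 replicate 1, ZT14 or ZT18 replicate 2, or ZT18 replicate 3 (adjusted p of at most 0.174), and Psmc5 in 11 of the 72 fits without a single library, all of them night-restricted (adjusted p of at most 0.124). Psmc6 had the smallest range of the ATPases (0.21 ± 0.10).

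In the core, 1 of 7 alpha subunits (Psma2) and 1 of 7 constitutive beta subunits (Psmb5) were called under night-restricted feeding, against 29.9% of all genes. Psmb5 carries the chymotrypsin-like activity of the core and is the main target of proteasome inhibitor drugs. Under arrhythmic feeding Psmb5 stood at 43.6, 56.2 and 103 CPM at ZT02 and at 44.0, 73.7 and 53.9 CPM at ZT10. There the groups overlapped. Under night-restricted feeding it stood at 124, 91.6 and 91.8 CPM at ZT02 and at 48.8, 55.4 and 54.5 CPM at ZT10, without overlap. The fitted range was 0.28 ± 0.24 under arrhythmic and 0.99 ± 0.24 under night-restricted feeding, where the peak fell at ZT 0.318 (edgeR adjusted p = 0.00506). The rhythm difference had an edgeR adjusted p of 0.0505, and DESeq2 called it. Without night-restricted replicate 1, whose ZT22 library held 123 CPM beside 71.6 and 77.9 CPM, the range under night-restricted feeding was 0.52 (edgeR adjusted p = 0.298).

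Psma2, a subunit of the alpha ring, had a range of 0.73 ± 0.21 under night-restricted feeding with a peak at ZT 11.2 (edgeR adjusted p = 0.0157). Its replicate 1 libraries held 187, 148 and 134 CPM at ZT02, ZT06 and ZT22, against 337 to 477 CPM in the other libraries of ZT02 and ZT06 and 383 and 308 CPM in those of ZT22. The call was lost without the night-restricted library ZT10 or ZT22 of replicate 1 (adjusted p of at most 0.0677). Without replicate 1 the range was 0.43 (edgeR adjusted p = 0.289). Psma1 had the largest range of the alpha subunits there (1.30 ± 0.47, edgeR adjusted p = 0.0824) and Psma6 the smallest (0.12 ± 0.18). Psmb4 had the smallest range of the constitutive beta subunits (0.25 ± 0.17). The other catalytic subunits, Psmb6 with caspase-like and Psmb7 with trypsin-like activity, had ranges of 0.73 ± 0.27 and 0.73 ± 0.40 (edgeR adjusted p = 0.0777 and 0.313).

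Psma7, an alpha ring subunit, was the member called under incompletely adapted arrhythmic feeding. It stood there at 256, 277 and 279 CPM at ZT10 and at 137, 133 and 140.0 CPM at ZT18. The ZT10 mean was 1.98 times the ZT18 mean, and the groups did not overlap. The fitted range was 0.53 ± 0.14 with a peak at ZT 7.92 (edgeR adjusted p = 0.0423). Under arrhythmic feeding it was 0.45 ± 0.14 with a peak at ZT 5.24 (edgeR adjusted p = 0.123), under night-restricted feeding 0.38 ± 0.14 (edgeR adjusted p = 0.0773) and under ad libitum feeding 0.26 ± 0.14 (edgeR adjusted p = 0.399). The call was lost in 10 of the 72 fits without a single library, each leaving out one of ZT06, ZT10, ZT18 or ZT22 of that paradigm, and without the 5 libraries of steepest GC slope the range was 0.56 (adjusted p = 0.0606).

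Of the 7 assembly chaperones, Psmd5 and Psmd10 were called under night-restricted feeding, against 29.9% of all genes. Psmd10, also known as gankyrin and overexpressed in liver cancer, stood at 46.8, 36.5 and 38.5 CPM at ZT10 and at 31.8, 22.9 and 24.5 CPM at ZT18. Every ZT10 library was higher than every ZT18 library. The range was 0.63 ± 0.16 with a peak at ZT 7.46 (edgeR adjusted p = 0.00514), nearly opposite to Psmd5. This call held in all 72 fits without a single library and was lost with time as a factor of 6 levels (adjusted p = 0.120). Psmg1, which pairs with Psmg2 to build alpha rings, had the largest range of the chaperones with a wide error (1.26 ± 0.52, edgeR adjusted p = 0.127), and Psmg4 the smallest (0.15 ± 0.17).

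No immunoproteasome subunit and no activator or inhibitor was called for a rhythm in any paradigm. Under night-restricted feeding Psmb8, Psmb9 and Psmb10, the inducible catalytic subunits, had ranges of 0.41 ± 0.31, 0.82 ± 0.42 and 0.53 ± 0.23. With the GC covariate Psmb9 and Psmb10 were called (1.34 ± 0.29 and 0.61 ± 0.13, edgeR adjusted p = 0.000750 and 0.000719), with peaks at ZT 5.87 and ZT 11.2. Psme1 and Psme2 are the subunits of the interferon-inducible activator ring, Psme3 forms its nuclear form and Psme4 is a separate large activator. Their ranges under night-restricted feeding were 0.18 ± 0.21, 0.61 ± 0.29, 0.45 ± 0.24 and 0.50 ± 0.28. Psme3 was called with the GC covariate (0.87 ± 0.16, peak at ZT 15.0, edgeR adjusted p = 8.43e-05). Psmf1, the inhibitor of the core, had a range of 0.60 ± 0.26 and Psme2b 0.11 ± 0.17. Psme2b is a near copy of Psme2, so the split of reads between them is uncertain, and the 3′ ends of Psme1 and Psmb7 overlap Emc9 and Nek6 on the opposite strand.

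The fitted peaks of the members under night-restricted feeding, most of them in members not called rhythmic, differed on average with base composition. The 23 members with a 3′ GC content below the members' median of 47.4% had a mean fitted peak at ZT 18.2 (vector length 0.359, where 1 is full alignment), and 15 of them peaked in the dark. The 24 members at or above the median had a mean peak at ZT 1.92 (vector length 0.464), and 7 of them peaked in the dark. Only 4 of the 23 and 6 of the 24 were called rhythmic. Over all genes 49.5% peaked in the dark, and the split by GC content was not made for all genes. With the GC slope of each library in the model the mean peaks were ZT 19.1 and ZT 2.38, and the vector lengths fell to 0.178 and 0.269. In that fit 18 of 47 members were rhythmic under night-restricted feeding, against 33.1% of all genes, and 9 of the 10 calls above were among them, Psmc5 being the exception. Without the 5 libraries of steepest GC slope, 4 of the 10 were called (Psmd4, Psmd5, Psmd7 and Psmd10). The part of base composition in these courses was not tested further. The calls added by the covariate were Psma3, Psma4, Psma7, Psmb9, Psmb10, Psmd11, Psmd12, Psme3 and Psmg2. The same fit called Psma7 and Psmc3 under incompletely adapted arrhythmic feeding (6.46% of all genes), Psmc4 under arrhythmic feeding (6.53%), and Psmd4 and Psmd7 under ad libitum feeding (11.7%). In arrhythmic against night-restricted feeding it called Psmd5 and Psmc4 (3.26% of all genes). The range of the ATPase Psmc4 was 0.35 ± 0.08 under arrhythmic and 0.16 ± 0.08 under night-restricted feeding in that fit (edgeR adjusted p of the difference 0.0388).

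**Figure D4:**
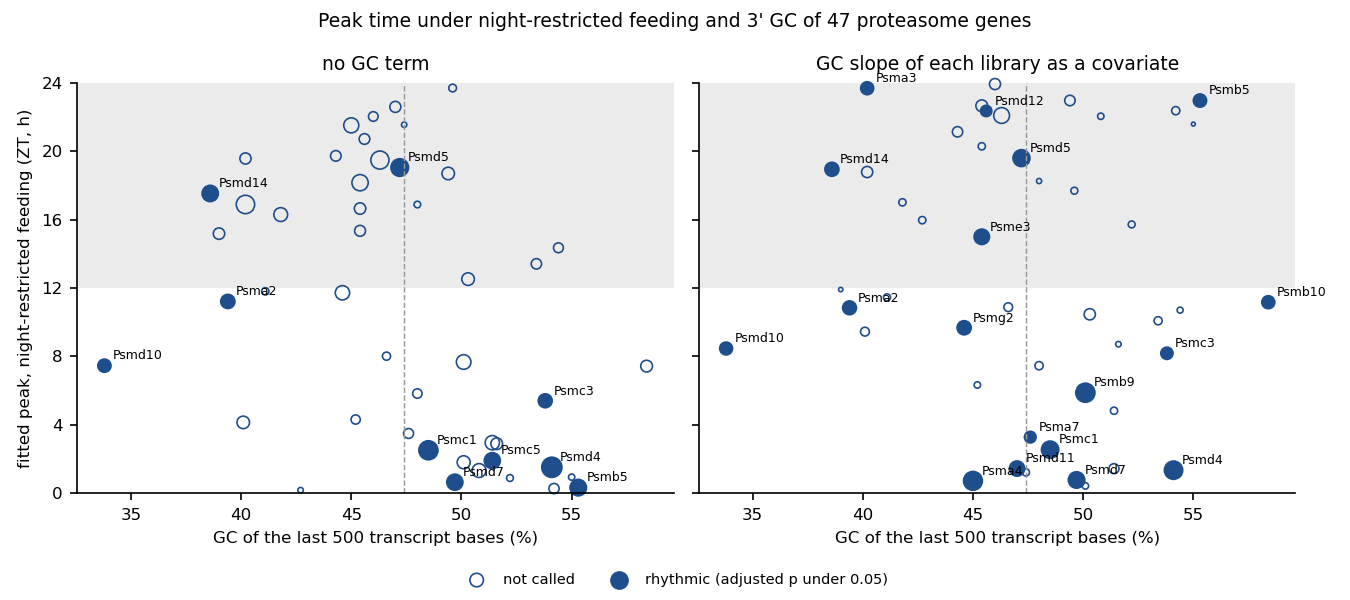
Fitted peak under night-restricted feeding (ZT, y axis, hours; grey is the dark phase) against the GC content of the last 500 transcript bases (percent, x axis; the dashed line is the median of 47.4%) of the 47 members, without and with the GC slope of each library as a covariate. Filled points are rhythmic at an adjusted p under 0.05 and areas scale with the range; 10 points are filled on the left and 18 on the right.

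Mean levels over the day were compared between incompletely adapted arrhythmic and night-restricted feeding. There 12 of 47 members were called, against 18% of all genes, and 22 had an unadjusted p under 0.05, against 36.3%. With the GC covariate 2 members were called, against 4.48% of all genes, and without the 5 libraries of steepest GC slope 0 members. Higher under incompletely adapted arrhythmic feeding were 6 members, against 6.85% of all genes: Psma4, Psme2, Psmc2, Psmd1, Psmb9 and Psmd11. Lower were 6, against 11.2% of all genes: Psmb5, Psmd2, Psmb1, Psmd13, Psmf1 and Psme3. The largest was that of Psma4, an alpha ring subunit, which ranged from 7.85 to 78.9 CPM with a median of 30.6 CPM under incompletely adapted arrhythmic feeding and from 6.30 to 31.9 CPM with a median of 13.9 CPM under night-restricted feeding. The log2 difference was 0.97 ± 0.26 (SE, edgeR adjusted p = 0.00891), and the ranges overlapped. The summed hepatocyte markers averaged 33400 ± 2737 CPM under incompletely adapted arrhythmic and 38689 ± 4124 CPM under night-restricted feeding (SD, n = 18 each), Kupffer cell markers 950.2 ± 367 and 1129 ± 526 CPM, and erythroid markers 1846 ± 750.2 and 2111 ± 684 CPM, in the same order. Their part in the mean level differences was not tested. Psmb5 had a median of 60.4 CPM (42.7 to 82.2) under incompletely adapted arrhythmic feeding and 70.0 CPM (48.8 to 124) under night-restricted feeding. Its log2 difference was -0.49 ± 0.12 (edgeR adjusted p = 0.00521).

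In arrhythmic against night-restricted feeding, which shares the night-restricted libraries, 3 of 47 members were called, against 6.92% of all genes. Of these, 2 were higher under arrhythmic feeding (1.76% of all genes) and 1 lower (5.16%). Psme2 averaged 73.4 ± 15.2 CPM under arrhythmic and 49.4 ± 20.5 CPM under night-restricted feeding (SD, n = 18 each), a log2 difference of 0.55 ± 0.14 (SE, edgeR adjusted p = 0.0158). Psmc2, an ATPase, averaged 56.4 ± 11.9 CPM under arrhythmic and 43.3 ± 12.5 CPM under night-restricted feeding, a log2 difference of 0.32 ± 0.09 (edgeR adjusted p = 0.0174). Psmb5 was lower under arrhythmic feeding by a log2 difference of -0.37 ± 0.12 (edgeR adjusted p = 0.047). In incompletely adapted arrhythmic against night-restricted feeding the differences were 0.54 for Psme2 (edgeR adjusted p = 0.00892), 0.29 for Psmc2 (edgeR adjusted p = 0.0149) and, as above, -0.49 for Psmb5.

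Among the inducible subunits, Psmb9 averaged 16.1 ± 7.53 CPM under incompletely adapted arrhythmic, 15.4 ± 6.32 CPM under arrhythmic, 9.91 ± 5.34 CPM under night-restricted and 15.5 ± 6.84 CPM under ad libitum feeding over the day (SD, n = 18 each). Its log2 difference of incompletely adapted arrhythmic over night-restricted feeding was 0.59 ± 0.20 (SE, edgeR adjusted p = 0.0344). The night-restricted mean of Psmb9 was the lowest of the 4. Psmb8 averaged 35.7 ± 9.99 CPM under incompletely adapted arrhythmic, 36.5 ± 11.2 CPM under arrhythmic, 27.8 ± 11.0 CPM under night-restricted and 34.8 ± 13.6 CPM under ad libitum feeding, with a log2 difference of 0.31 ± 0.16 in the same comparison (edgeR adjusted p = 0.143). Psmb10 averaged 42.6 ± 8.84 CPM under incompletely adapted arrhythmic, 46.4 ± 7.43 CPM under arrhythmic, 48.4 ± 13.2 CPM under night-restricted and 47.5 ± 7.77 CPM under ad libitum feeding, with a log2 difference of -0.28 ± 0.12 (edgeR adjusted p = 0.0784). Of the 3 inducible subunits Psmb9 alone was called; whether they differ from each other was not tested. Of the activators, Psme3 had a log2 difference of -0.33 ± 0.12 (edgeR adjusted p = 0.0428), Psme1 of -0.03 ± 0.10 (edgeR adjusted p = 0.826) and Psme4 of 0.08 ± 0.14 (edgeR adjusted p = 0.712). Psmf1, the inhibitor, had a log2 difference of -0.37 ± 0.13 (edgeR adjusted p = 0.038).

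These differences in mean level are given here without the libraries that stood apart. Psme2 held 15.3, 14.5 and 8.49 CPM in the night-restricted replicate 1 libraries of ZT02, ZT06 and ZT22, which have the 3 steepest GC slopes, against 44.3 to 70.9 CPM in the other libraries of those times. Psmc2 held 26.7, 15.5 and 24.5 CPM in the same 3 libraries, against 43.8 to 65.1 CPM in the others of those times. Without the 6 libraries of night-restricted replicate 1, 0 members were called in either comparison by edgeR. The same holds without the 5 libraries of steepest GC slope. Without night-restricted replicate 1 the values were 0.74 for Psma4 (adjusted p = 0.187), 0.32 for Psme2 in both comparisons (adjusted p = 0.157 in incompletely adapted arrhythmic and 0.159 in arrhythmic against night-restricted feeding) and -0.27 for Psmb5 in incompletely adapted arrhythmic against night-restricted feeding (adjusted p = 0.261). That choice of libraries was made after seeing the data. No single library decided the calls of Psma4, Psmb5, Psmc2, Psmd1, Psmd2 and Psme2 in incompletely adapted arrhythmic against night-restricted feeding, nor those of Psmc2 and Psme2 in arrhythmic against night-restricted feeding, which were kept in all 72 fits without 1 library. Psmb5 lost its call in arrhythmic against night-restricted feeding in 49 of these 72 fits. With the GC covariate, 2 members (Psmb4 and Psmc3) were called in incompletely adapted arrhythmic against night-restricted feeding, against 4.48% of all genes. In arrhythmic against night-restricted feeding 4 were called (Psmb4, Psmc2, Psmc3 and Psme2), against 6.07% of all genes.

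**Figure D5:**
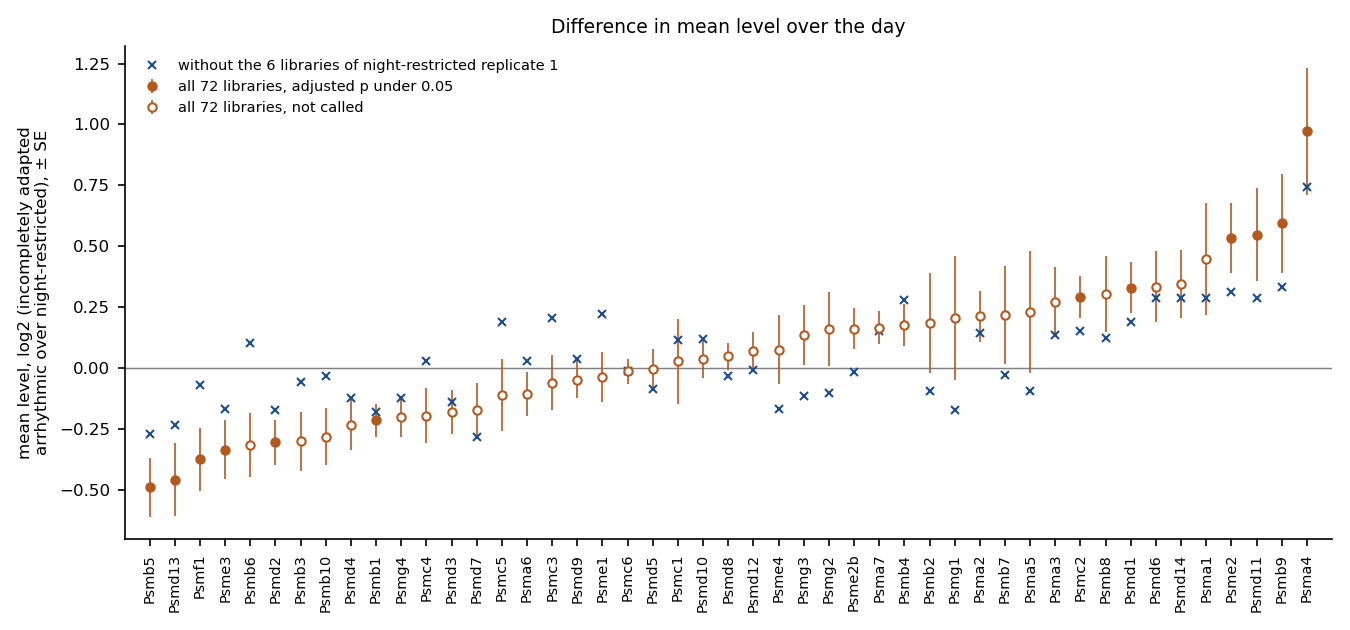
Difference in mean level over the day for each member (log2, incompletely adapted arrhythmic over night-restricted feeding, y axis; circles with ± SE, filled where the adjusted p was under 0.05) and the same without the 6 libraries of night-restricted replicate 1 (crosses). Psma4 moves to 0.74 and Psmb5 to -0.27 without those libraries.

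The other comparisons of mean level gave few calls. In arrhythmic against ad libitum feeding edgeR called 0 members, against 2.1% of all genes (0.661% higher and 1.44% lower), with 5 (Psmc2, Psmd4, Psmd7, Psmd9 and Psmd14) at an unadjusted p under 0.05 (14% of all genes) and 0 called by DESeq2. In night-restricted against ad libitum feeding it called Psme2b alone, against 1.62% of all genes (0.724% higher and 0.897% lower). Psme2b averaged 32.4 ± 9.61 CPM under night-restricted and 41.0 ± 4.42 CPM under ad libitum feeding (SD, n = 18 each), a log2 difference of -0.31 ± 0.09 (edgeR adjusted p = 0.0458). That call was lost in 44 of the 72 fits without a single library, and without night-restricted replicate 1 the difference was -0.12 (adjusted p = 0.573). In incompletely adapted arrhythmic against arrhythmic feeding edgeR called 0 members, against 0% of all genes, with 0 at an unadjusted p under 0.05 (5.03% of all genes) and 0 called by DESeq2. The median log2 difference of the members was 0.07 in arrhythmic over night-restricted, 0.05 in incompletely adapted arrhythmic over night-restricted, 0.01 in arrhythmic over ad libitum, -0.05 in night-restricted over ad libitum and -0.02 in incompletely adapted arrhythmic over arrhythmic feeding.

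Genes that act with the proteasome were read from 4 lists. Of 18 tested genes that bind the proteasome or control its genes, 0 were rhythmic under incompletely adapted arrhythmic, 0 under arrhythmic, 5 under night-restricted and 0 under ad libitum feeding. Over all genes the shares were 3.63%, 3.37%, 29.9% and 7.48% in that order. The 5 were Aamp, Zfand2a, Adrm1, Akirin2 and Ipo9, of which Akirin2 and Ipo9 carry proteasomes into the nucleus. Under night-restricted feeding Adrm1, another ubiquitin receptor of the particle, had a range of 0.93 ± 0.28 and a peak at ZT 0.260 (edgeR adjusted p = 0.0258). Nfe2l1, which encodes NRF1, had 0.78 ± 0.30 (edgeR adjusted p = 0.10). Pomp, the maturation chaperone of the core, had 0.11 ± 0.15, and Sem1, a small lid subunit, 1.46 ± 0.68 (edgeR adjusted p = 0.208). None of the 5 was called for a rhythm difference in arrhythmic against night-restricted feeding.

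Of 20 tested genes for ubiquitin supply, activation and delivery, 0 were rhythmic under incompletely adapted arrhythmic feeding, 1 under arrhythmic (Ube2d3), 7 under night-restricted (Ubb, Ubqln1, Ubqln4, Ufd1, Ube2d2a, Ube2d3 and Stub1) and 2 under ad libitum feeding (Ubqln1 and Ube2d3), against 3.63%, 3.37%, 29.9% and 7.48% of all genes in that order. Under night-restricted feeding Ubb, a polyubiquitin gene, had a range of 0.85 ± 0.17 and a peak at ZT 10.2 (edgeR adjusted p = 0.000621). Of 14 tested genes for antigen processing and the interferon response, 0 were rhythmic under incompletely adapted arrhythmic feeding, 4 under night-restricted (Tap1, Tapbp, Nlrc5 and Gbp2) and 1 under ad libitum feeding (Tap1), against 3.63%, 29.9% and 7.48% of all genes in that order. Tap1, the peptide transporter that carries proteasome products into the endoplasmic reticulum, lies next to the immunoproteasome gene Psmb9 in the genome. Its range was 0.26 ± 0.20 under incompletely adapted arrhythmic and 1.46 ± 0.20 under night-restricted feeding, and this rhythm difference was called (edgeR adjusted p = 0.024). Of 16 heat shock response genes, 5 were rhythmic under incompletely adapted arrhythmic, 6 under arrhythmic, 16 under night-restricted and 11 under ad libitum feeding, against 3.63%, 3.37%, 29.9% and 7.48% of all genes in that order.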

How the data were processed

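QuantSeq 3′ libraries (Lexogen) were made from 2 µg of liver RNA, per the labels' protocols, and aligned with STAR 2.4.2a, per the submitters' processing notes. The sources used here name no counting tool or strand setting. The authors deposited raw read counts per Ensembl gene, which entered all tests. The authors also deposited a second table, named as TPM, whose values equal CPM of the count table with no gene length term. The largest difference was 5.09e-11 over 11508 genes. Gene names came from the reference annotation for 51719 of 51912 rows.

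Counts were scaled by TMM and tested with edgeR 4.0.16 (R 4.3.3) quasi-likelihood fits over all 72 libraries, after a filter that kept 12712 genes. CPM values in the text carry no TMM scaling. Each paradigm had a mean and a 24 h cosine and sine, and p-values were adjusted by Benjamini-Hochberg over all genes, with a threshold of 0.05. Alternatives used DESeq2 1.42.0, other scaling, filters, models and subsets of libraries. The 3′ GC content was taken over 500 bases. Scripts were tested on simulated data.

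The members and lists were chosen with earlier results of these data known. Members called for a rhythm difference, those with the largest and smallest night-restricted range in each role, the immunoproteasome and activator genes, and up to 10 members of smallest p for mean level were named with their values. Others, such as Psmd10 and Psmd7, were named as members called for a rhythm. The count of the antigen processing list under arrhythmic feeding is not reported here.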

Additional observations from a re-analysis of the deposited data

Results flagged for a closer look

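Over all genes, 3.89% were called for a rhythm difference in arrhythmic and 0.614% in incompletely adapted arrhythmic against night-restricted feeding. The 4 lists held 18, 20, 14 and 16 tested genes. Rhythm differences that passed edgeR's test of the difference itself were found for 2 of 47 members and 5 genes of the lists. In arrhythmic against night-restricted feeding they were Psmd4 (adjusted p = 0.0278), Psmd5 (adjusted p = 0.041), Tapbp (adjusted p = 0.0278), Dnaja1 (adjusted p = 0.00482), Chordc1 (adjusted p = 0.0122) and Cct5 (adjusted p = 0.0397). Tap1 differed in incompletely adapted arrhythmic against night-restricted feeding (edgeR adjusted p = 0.024). The range of Tapbp, which loads peptides onto class I molecules, was 0.33 under arrhythmic and 1.59 under night-restricted feeding. With the GC covariate 0 genes of its list were called in that comparison. The range of the co-chaperone Dnaja1 was 0.57 under arrhythmic and 2.16 under night-restricted feeding, and that of Chordc1 was 0.34 and 2.01 in the same order. Cct5, a subunit of the cytosolic chaperonin, had ranges of 0.45 under arrhythmic and 0.74 under night-restricted feeding, with fitted peaks at ZT 14.6 and ZT 24.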

How the results depend on the processing

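No result called in the main fit (all 72 libraries, no covariate) changed its direction past the threshold under the alternatives run, but counts of called members moved. Members called only under an alternative, such as Psmc4 with the GC covariate, were not all checked for direction. Rhythmic members are listed by paradigm: first incompletely adapted arrhythmic, then arrhythmic, then night-restricted, and last ad libitum feeding. They numbered 2, 1, 18 and 2 with the GC covariate, 2, 1, 19 and 3 with the GC covariate and replicate block, and 0, 0, 4 and 2 without the 5 libraries of steepest GC slope. Time as a factor gave 4 under night-restricted feeding, DESeq2's likelihood ratio test 2 under ad libitum, and no filter or only the paradigm's own libraries 0 under incompletely adapted arrhythmic feeding. For a rhythm difference in arrhythmic against night-restricted feeding the count was 1 with no filter or without the 5 libraries, 0 with time as a factor or only the libraries tested, and 4 by DESeq2's likelihood ratio test. In incompletely adapted arrhythmic against night-restricted feeding it was 1 with DESeq2 size factors, the replicate block, the GC covariate with replicate block, or DESeq2's test. For mean level in arrhythmic against night-restricted feeding it was 1 with no filter or only the libraries tested, 5 with the GC covariate and block, 0 without the 5 libraries and 6 by DESeq2's test. In incompletely adapted arrhythmic against night-restricted feeding it was 6 with no filter, 2 with the GC covariate, 3 with the covariate and block, 0 without the 5 libraries and 5 with only the libraries tested. In arrhythmic against ad libitum feeding it was 2 with the covariate, with or without the block, and 1 without the 5 libraries. In night-restricted against ad libitum feeding it was 4 with the covariate, 5 with the covariate and block, and 0 with no filter, time as a factor, without the 5 libraries or with only the libraries tested. Without night-restricted replicate 1, chosen after seeing the data, the rhythm counts were 1, 0, 5 and 2, rhythm differences were 0 in arrhythmic and 1 in incompletely adapted arrhythmic against night-restricted feeding, and mean level counts were 0, 0, 1 and 0 in the order above. Leaving out a single library gave 0 to 1, 0, 7 to 14 and 1 to 2 rhythmic members, 0 to 7 and 0 to 1 rhythm differences, and 2 to 6, 6 to 19, 0 to 1 and 0 to 3 mean level differences, in the same orders. The cause of these moves was not tested. The replicate numbers did not pair the samples across all groups, since not every pair correlated: the deviations of same-numbered libraries correlated at 0.0328 on average over all groups, and within paradigms at 0.345 (incompletely adapted arrhythmic), 0.115 (arrhythmic), 0.410 (night-restricted) and 0.270 (ad libitum), and 34 of 72 libraries were closest to their own number. The replicate block left 1, 0, 10 and 1 rhythmic members, and it moved no count other than the one above by over 1.5 times. Its terms were shared by all paradigms, so it cannot take up a shift of a replicate number within a single paradigm. Such shifts were not modelled. Psmb2, with 2 to 75 reads per library, is the member most limited by depth.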
